A study of Mus musculus with 6 samples.

Results

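The cytochrome P450 genes of the mouse olfactory mucosa were described in RNA-Seq libraries of wild-type and RTP1,2DKO mice. A gene was taken as a member when its name in the deposited tables was Cyp followed by a digit, after the number that marks each transcript had been removed. This gave 105 of 24661 genes and 126 of 38041 transcripts, and the 11 genes named Cypt were left out. The whole olfactory mucosa, that is the olfactory epithelium with the surrounding tissue, was taken from 3 wild-type and 3 RTP1,2DKO mice at postnatal day 21. Both groups are labelled C57BL/6. RTP1,2DKO mice are homozygous for alleles in which the coding regions of Rtp1 and Rtp2, whose products carry olfactory receptors to the cell surface, were replaced by cassettes. The alleles were made in ES cells of a 129/B6 hybrid line, every cell of the animal carries them, and the mice were littermates with 2 males and 1 female in each group. Of the members, 98 are protein-coding in GENCODE M21 (GRCm38), 4 are pseudogenes, 1 is an antisense gene (Cyp4x1os), and 2 (Cyp2c44 and Cyp2d13) have no entry under these names.

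Cytochrome P450 enzymes are heme proteins that insert an oxygen atom into a substrate. Most sit in the endoplasmic reticulum, where the reductase encoded by Por hands them electrons from NADPH, with help from cytochrome b5 (Cyb5a). Families 1 to 3 mainly oxidise drugs, toxicants and odorants, family 4 mainly hydroxylates fatty acids, and the remaining families make or break down sterols, steroid hormones, retinoic acid and vitamin D. In the nose, P450 proteins are abundant in the sustentacular cells that flank the olfactory neurons and in Bowman's glands below the epithelium, more than in the neurons themselves.

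The estimated counts summed to between 31125410 and 41636996 per mouse. At this depth 3 counts, the most that a count of 0 allows, correspond to 0.0721 to 0.0964 CPM (counts scaled to the library total), and these limits cover counting error only. Rtp1 had 20591.5, 25386.7 and 13588.5 normalized counts in the wild-type mice and 90.9, 85.8 and 109.1 in RTP1,2DKO. Rtp2 had 8525.5, 9542.7 and 7180.9 normalized counts in the wild-type against 58.2, 26.3 and 51.1. Both targeted genes thus matched the labels. Of 10 marker genes of mature olfactory sensory neurons 8 fell in RTP1,2DKO, and their summed normalized counts ranged from 129067.3 to 133610.4 in the wild-type and from 56447.9 to 65281.3 in RTP1,2DKO. Of 18 genes listed for sustentacular cells and 15 listed for Bowman's glands, P450s left out, 0 passed the test in either direction. Of these, 3 gland genes were lower and 1 sustentacular cell gene (Krt8) was higher in every RTP1,2DKO mouse. Of 10 hepatocyte genes, Alb had at most 1.1 normalized counts in any mouse and Trf, which many tissues express, had 449.9 to 628.4, while 0 of the 9 tested passed. In whole tissue, fewer cells of a type and less RNA per cell cannot be told apart.

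Near-identical copies limit what can be said of some members, and the clearest case is the pair of Cyp2a5 and Cyp2a4. Their coding sequences are both 1482 bases long and differ at 23 positions (98.45% identity), and the longest stretch without a difference is 216 bases. The stretch richest in differences is shown because reads over it can separate the genes. It covers coding positions 596 to 655, and the capitals mark the 4 bases that differ.
Cyp2a4: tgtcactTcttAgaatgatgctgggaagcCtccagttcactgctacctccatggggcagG
Cyp2a5: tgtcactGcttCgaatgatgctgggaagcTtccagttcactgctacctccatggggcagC
The stretch lies in exon 4, chr7:26309030-26309088 in Cyp2a4 and chr7:26837193-26837251 in Cyp2a5 (GRCm38, plus strand), and its last base is the first of exon 5. Shared sequence was counted in 31-base words of the longest coding GENCODE M21 transcript of each gene. Of these words, 41.5% were found in no other GENCODE M21 gene for Cyp2a5 and 41.1% for Cyp2a4. For Cyp4a12a and Cyp4a12b the shares were 37.8% and 37.1%. For the other 13 of the 15 most abundant members the share lay between 78.4% (Cyp2b10) and 100% (Cyp39a1), with 92.2% for Cyp2g1 and 88.0% for Cyp2f2. The authors ran kallisto on transcripts from UCSC, so these shares do not directly measure the overlap in the deposited values.

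The upstream sequences of 5 members the results turn on follow, from RefSeq (GRCm38.p6). They are the most abundant gene (Cyp2a5), the pair that moved together from mouse to mouse (Cyp1a1 and Cyp1a2), and the genes that passed the test between genotypes (Cyp2b10 and Cyp4v3). Each runs from 150 to 11 bases before the annotated start on the gene's strand. Capitals mark 3 motifs that were searched on both strands. The first is the TATA box, spelled TATAAA. The second is the core bound by the aryl hydrocarbon receptor, spelled GCGTG, which reads CACGC on the other strand. The third is the short site of nuclear factor I, spelled TTGGC, which reads GCCAA on the other strand.
Cyp2a5, chr7:26835189-26835328, plus strand: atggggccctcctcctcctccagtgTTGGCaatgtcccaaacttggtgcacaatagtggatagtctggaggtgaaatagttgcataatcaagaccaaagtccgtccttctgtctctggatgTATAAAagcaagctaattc
Cyp1a1, chr9:57697463-57697602, plus strand: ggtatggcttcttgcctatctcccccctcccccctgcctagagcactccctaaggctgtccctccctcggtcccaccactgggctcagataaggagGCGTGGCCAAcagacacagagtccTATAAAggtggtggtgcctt
Cyp1a2, chr9:57683666-57683805, minus strand: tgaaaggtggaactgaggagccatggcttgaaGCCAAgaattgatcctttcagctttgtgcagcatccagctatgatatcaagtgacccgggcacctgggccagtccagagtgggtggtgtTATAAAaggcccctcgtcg
Cyp2b10, chr7:25897508-25897647, plus strand: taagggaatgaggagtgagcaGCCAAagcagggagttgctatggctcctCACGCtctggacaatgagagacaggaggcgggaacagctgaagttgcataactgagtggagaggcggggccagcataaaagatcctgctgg
Cyp4v3, chr8:45333174-45333313, minus strand: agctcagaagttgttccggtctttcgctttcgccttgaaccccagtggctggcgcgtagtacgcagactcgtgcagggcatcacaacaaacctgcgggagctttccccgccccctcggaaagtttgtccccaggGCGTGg
In Cyp1a1 the receptor core and the nuclear factor I site stand side by side and share no base. GENCODE M21 places the starts of Cyp2a5, Cyp1a2, Cyp2b10 and Cyp4v3 a little upstream, inside these windows. It places the start of the Cyp1a1 gene at 57687928, far upstream of the window shown. Over the 250 bases before the start, TATAAA was found in 28 of the 78 members with a RefSeq promoter and in 13.0% of all 27025 promoters. GCGTG was found in 16 of the 78 members and in 28.2% of all promoters, and TTGGC in 48 of the 78 and in 41.9%. Cyp2g1 is one of the members without an entry.

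Levels were compared between genes in TPM as deposited by the authors, a unit that divides by transcript length and scales each mouse to the same total. Of the 105 members, 35 had a mean of at least 1 TPM, 19 of at least 10 and 5 of at least 100, and 70 stayed under 1. All members together took 3622.7 to 5508.1 TPM in a mouse, which is 0.362% to 0.551% of the transcripts. A few enzymes made up nearly all of it. Cyp2a5, Cyp2g1 and Cyp2f2 together took 85.3% to 87.4% of the P450 TPM of a mouse, and the 15 most abundant genes 97.1% to 97.7%.

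Cyp2a5 (chromosome 7, 26835305 to 26843548), the coumarin 7-hydroxylase that also activates many nasal toxicants, was the most abundant member in all 6 mice. It had 2611.9, 3175.2 and 2304.9 TPM in the wild-type and 2792.8, 2671.3 and 2019.5 in RTP1,2DKO. This was 54.5% to 61.8% of the P450 TPM, and in each mouse Cyp2a5 ranked between 31 and 38 among all genes of the mucosa. Cyp2g1 (chromosome 7, 26808892 to 26821205), a steroid and odorant oxidising enzyme known for its expression in the nose, came second with 808.6, 821.1 and 871.1 TPM in the wild-type and 619.1, 592.9 and 614.3 in RTP1,2DKO. Cyp2f2 (chromosome 7, 27119909 to 27133660), which forms the naphthalene epoxide, had 578.6, 703.5 and 520.5 TPM in the wild-type and 474.4, 513.1 and 484.6 in RTP1,2DKO. The order of these 3 genes was the same in every mouse, with a Cyp2a5 to Cyp2g1 ratio of 2.65 to 4.51 and a Cyp2g1 to Cyp2f2 ratio of 1.16 to 1.67.

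A clear step separated them from the next enzymes, since Cyp2f2 exceeded Cyp2e1 by 3.24 to 7.95 times within a mouse. Cyp2e1, which oxidises ethanol and other small solvents, had 72.8, 170.0 and 97.2 TPM in the wild-type and 146.2, 93.4 and 83.4 in RTP1,2DKO. Cyp1a2, the caffeine and aromatic amine oxidase, had 101.5, 147.4 and 99.5 TPM in the wild-type and 103.8, 92.0 and 81.4 in RTP1,2DKO. The order of Cyp2e1 and Cyp1a2 changed between mice, with Cyp2e1 higher in 4 of 6, so the difference between their means was not larger than the spread. Cyp1a1, which oxidises polycyclic aromatic hydrocarbons, followed Cyp1a2 in all 6 mice.

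**Figure D1:**
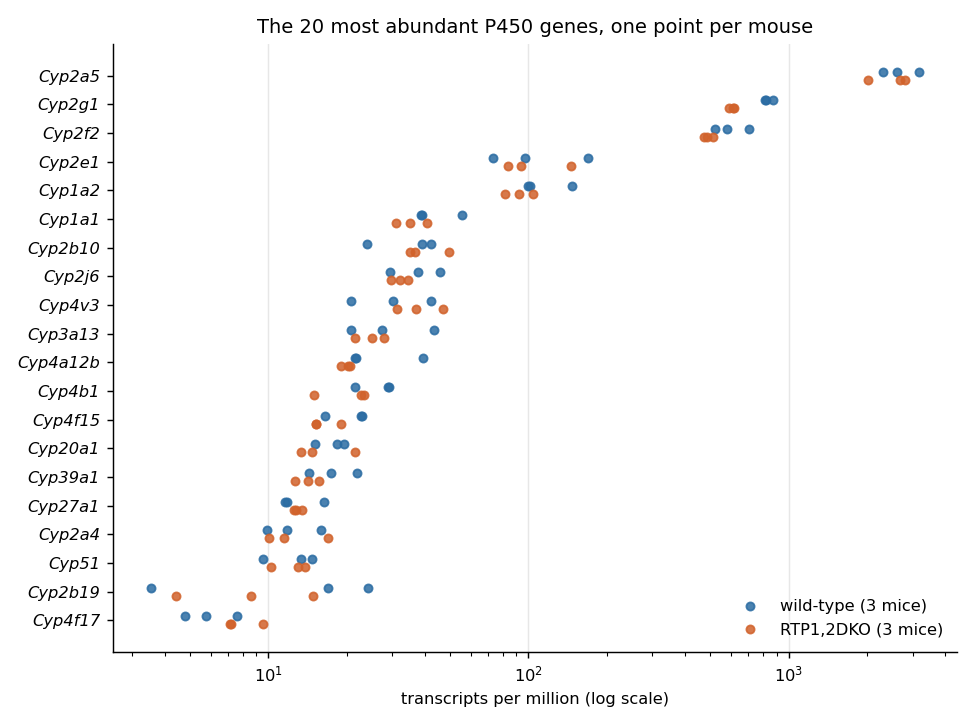
TPM of the 20 most abundant P450 genes on a log axis, ordered by their mean, with 1 point per mouse (blue, wild-type; orange, RTP1,2DKO). Cyp2a5, Cyp2g1 and Cyp2f2 stand above 400 TPM in all mice. The ranges of Cyp2g1 and Cyp2f2 overlap, as do those of Cyp2e1 and Cyp1a2, and from Cyp1a1 downward neighbouring genes overlap.

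Below these, neighbours in the order mostly could not be separated. Cyp2b10, the gene known for its induction by phenobarbital, had a mean of 37.8 TPM over all mice, Cyp2j6, an arachidonic acid epoxygenase, 34.8, and Cyp4v3, a fatty acid omega-hydroxylase, 34.7. Each of them was above the next in only 3 or 4 of 6 mice. Cyp3a13 with a mean of 27.6 TPM was the only one of the 9 family 3 genes with at least 1 TPM. Family 4 held 11 genes at or above 1 TPM, and Cyp4a12b (23.8), Cyp4b1 (23.4) and Cyp4f15 (18.6) led it after Cyp4v3. Family 1 was present in full, with Cyp1b1 at 2.94 TPM. Of the 50 family 2 genes, 13 reached 1 TPM. The orphan enzyme Cyp20a1 had a mean of 17.2 TPM.

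Among the sterol and bile acid enzymes, 5 of 7 reached 1 TPM. Cyp39a1, the 24-hydroxycholesterol 7-alpha-hydroxylase, was the highest with a mean of 16.0 TPM. It was followed by Cyp27a1, the sterol 27-hydroxylase (13.1), and Cyp51, the lanosterol demethylase of cholesterol synthesis (12.5), and then by Cyp7b1 (1.64) and Cyp46a1 (1.36). Of the 3 retinoic acid hydroxylases only Cyp26b1 reached 1 TPM, with a mean of 4.10 and a range of 3.63 to 4.73 over the mice. None of the 3 vitamin D enzymes or the 6 steroid hormone synthesis enzymes did. In all, 19 members were listed at 0 after rounding in every mouse, and 13 of them were family 2 genes, 4 family 3 and 2 steroid hormone genes. At this depth such a member is not detectable, which does not show that it is absent.

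Most of the P450 RNA came from 1 gene cluster. Between 25802475 and 27158668 on chromosome 7 lie 13 members, and together they held 88.04% of the mean P450 TPM. Within the cluster the levels ran from Cyp2a22 (mean 0.047 TPM) to Cyp2a5, its neighbour (2596 TPM). The 3 genes above 100 TPM were Cyp2g1, Cyp2a5 and Cyp2f2, and 6 genes stayed under 1 TPM, among them Cyp2a12, Cyp2a22 and Cyp2b9. Chromosome 19, which holds 18 members, by contrast gave 0.03% of the P450 TPM. Genes of high and low level lay between each other along the cluster.

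**Figure D2:**
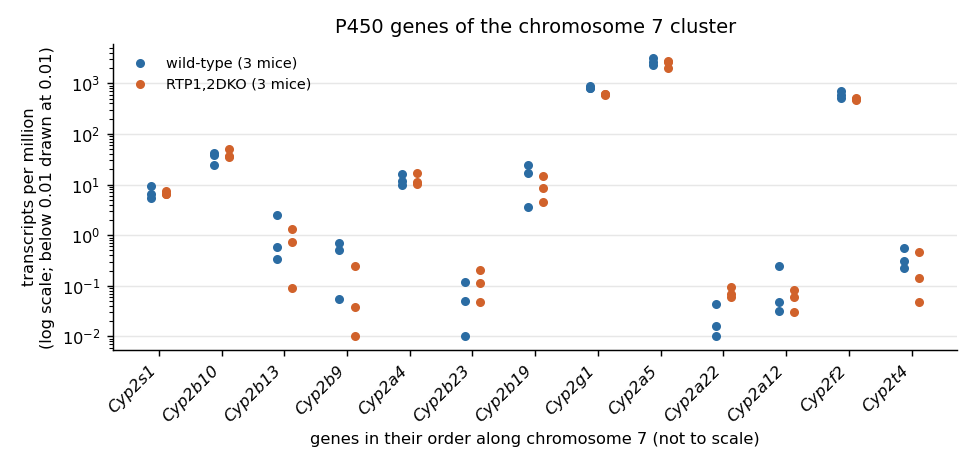
TPM on a log axis of the 13 P450 genes of the chromosome 7 cluster in their order along the chromosome, with 1 point per mouse (blue, wild-type; orange, RTP1,2DKO) and values below 0.01 drawn at 0.01. Cyp2g1 and Cyp2a5 are adjacent and high, and Cyp2a22 and Cyp2a12, between Cyp2a5 and Cyp2f2, are below 1 TPM in every mouse.

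Cyp1a1 and Cyp1a2 lie head to head on chromosome 9, with RefSeq starts 13958 bases apart. The GENCODE M21 gene starts, at 57687928 and 57683703, lie closer together. Cyp1a1 had 38.5, 55.8 and 39.1 TPM in the wild-type and 40.6, 35.2 and 31.1 in RTP1,2DKO. The Cyp1a1 to Cyp1a2 ratio was 0.378 to 0.393 in the 6 mice, although each gene varied 1.41 to 1.46 times in normalized counts. Over the 190 pairs that the 20 most abundant members form, the SD of the log2 TPM ratio over mice was smallest for this pair (0.023). The next was 0.110, for Cyp2j6 with Cyp39a1, and the median was 0.302. Of their 31-base words 94.3% (Cyp1a1) and 92.0% (Cyp1a2) were found in no other gene. The remaining 5.7% and 8.0% were shared between the 2 genes of the pair. Whether reads over this shared sequence bear on the ratio was not tested. These values describe 6 mice, and the pair was picked out after its values were seen.

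**Figure D3:**
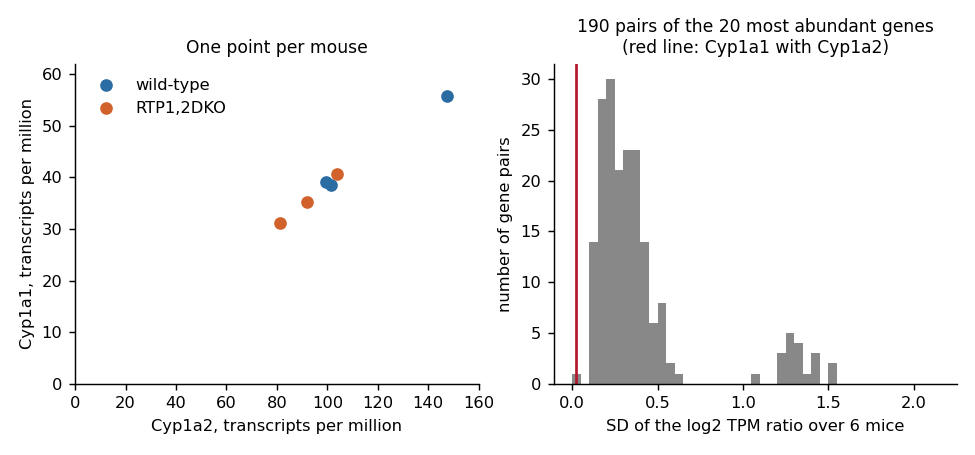
Left, Cyp1a1 against Cyp1a2 in TPM, with 1 point per mouse (blue, wild-type; orange, RTP1,2DKO). Right, the SD over mice of the log2 TPM ratio for 190 pairs of the 20 most abundant members, where the red line at 0.023 marks Cyp1a1 with Cyp1a2 and the group of pairs above 1 holds Cyp2b19.

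The TPM of Cyp2a4 was 0.430% to 0.609% of that of Cyp2a5, and the SD of their log2 ratio (0.191) placed the pair at rank 37 of 190. Cyp2a4, a testosterone 15-alpha-hydroxylase, had 9.92 to 17.01 TPM. Since 55.9% of the words of Cyp2a4 also occur in Cyp2a5, a part of the reads given to Cyp2a4 may come from the far more abundant Cyp2a5, and this was not tested. The ratio of Cyp4a12a to Cyp4a12b ranged more widely, from 2.33% to 8.59%.

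Members differed in how much they varied between mice. Within groups, the median SD of the log2 normalized count was 0.224 over the 35 members with a mean of at least 50 normalized counts. In 30 of the 35 the highest mouse was less than 2 times the lowest. Cyp2b10 and Cyp4f15 were the steadiest, each with an SD of 0.087. Cyp2b19, an arachidonic acid epoxygenase known from the epidermis, was the most variable with an SD of 1.457. It had 1087.7, 212.5 and 2222.5 normalized counts in the wild-type and 304.5, 740.3 and 1417.9 in RTP1,2DKO, a range of 10.46 times. The 2 mice lowest for Cyp2b19, wild-type mouse 2 and RTP1,2DKO mouse 1, were also lowest for the summed Bowman's gland genes, at 2297199 and 3249697 normalized counts against 5283918 to 7008766 in the others. A single gene, Bpifb9b, gave most of this gland sum, and whether the listed genes are made only in Bowman's glands was not tested. Of 8 genes of cornified squamous epithelium, a list chosen after these values were seen, 7 were in the files, and Krt10 gave most of their sum. The sum was 590.6, 640.5 and 390.5 normalized counts in the wild-type, where its order differed from that of Cyp2b19, and 422.9, 630.9 and 876.1 in RTP1,2DKO, where its order was the same. The part of either tissue in the spread of Cyp2b19 was not tested.

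The comparison of the genotypes asked whether the P450 genes change when the olfactory neurons lack Rtp1 and Rtp2. As a whole they did not differ beyond the spread between mice. The summed normalized counts of all members came to 197993 ± 28200 (SD) over the 3 wild-type mice and to 201330 ± 17253 (SD) over the 3 RTP1,2DKO mice, a ratio of 1.017 (two-sided exact permutation test, p = 0.9). Without Cyp2a5 the ratio was 0.949 (exact permutation test, p = 0.7). With 3 mice in each group this test cannot go below 0.1.

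Gene by gene, 86 members had at least 1 count in some mouse and were tested. With an adjusted p-value under 0.05 in edgeR's quasi-likelihood test, 2 members rose in RTP1,2DKO and 0 fell. Of all 22152 genes tested, 0.46% rose and 3.15% fell. At an unadjusted p-value under 0.05, 4 members were higher and 2 lower in the same test, as were 4.58% and 7.17% of all genes tested. DESeq2 called 3 members up and 0 down, against 1.1% and 4.56% of the 19559 genes to which it gave an adjusted p-value. The median log2 fold change was 0.01 over the members tested and 0.02 over all genes tested. Among the 35 members with a mean of at least 50 normalized counts, the log2 fold changes ran from -0.51 to 0.62. Of these, 31 lay within 0.5 of 0, as did 89.6% of the 15437 genes with such a mean.

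Cyp4v3 (chromosome 8, 45304944 to 45333216), the mouse counterpart of the fatty acid hydroxylase whose loss in humans causes Bietti crystalline dystrophy, rose in RTP1,2DKO. It had 2072.7, 2711.2 and 2047.7 normalized counts in the wild-type and 3469.0, 3422.2 and 3200.5 in RTP1,2DKO. On this scale every RTP1,2DKO mouse was above every wild-type mouse. The fold was 1.48 (log2 fold change 0.56, SE 0.133, adjusted p = 0.0338 in edgeR).

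Cyp2b10 (chromosome 7, 25897620 to 25926624) rose as well, and again the groups did not overlap in normalized counts. It had 1492.5, 1520.3 and 1319.8 normalized counts in the wild-type and 2029.0, 1890.1 and 2003.9 in RTP1,2DKO. The fold was 1.37 (log2 fold change 0.45, SE 0.114, adjusted p = 0.0489 in edgeR). Of its 31-base words 78.4% were unique, and the gene sharing most was Cyp2b13. Both calls sit close to the threshold. Cyp2b10 lost its call when any single mouse was left out (adjusted p = 0.0660 to 0.187 in edgeR), and Cyp4v3 when any mouse but wild-type mouse 2 was (0.0786 to 0.115). Neither passed with limma on rescaled TPM (adjusted p = 0.102 for Cyp4v3 and 0.0658 for Cyp2b10).

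Cyp4f17, of the subfamily that hydroxylates leukotrienes and other fatty acids, had the highest fold change of the well-counted members but did not pass in the main test. It had 250.1, 178.1 and 227.9 normalized counts in the wild-type and 337.3, 315.9 and 354.0 in RTP1,2DKO, without overlap. The log2 fold change was 0.62 (SE 0.178, adjusted p = 0.0922 in edgeR, 0.0498 in DESeq2). The next were Cyp4f40 at 0.32 (SE 0.280) and the retinoic acid hydroxylase Cyp26b1 at 0.29 (SE 0.175), and neither passed.

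At the lower end, Cyp2b19 had a log2 fold change of -0.51 (SE 0.618, adjusted p = 0.840 in edgeR), with the wide spread between mice given above. Cyp4a12a, a fatty acid omega-hydroxylase, had 100.7, 91.9 and 95.1 normalized counts in the wild-type and 34.9, 32.4 and 134.7 in RTP1,2DKO. A single mouse, RTP1,2DKO mouse 3, placed that group on both sides of the wild-type. The log2 fold change was -0.51 (SE 0.462, adjusted p = 0.773), and without that mouse it was -1.51 (adjusted p = 0.0311 in edgeR). Cyp4f13 (-0.35) and Cyp2j12 (-0.34) did not pass.

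**Figure D4:**
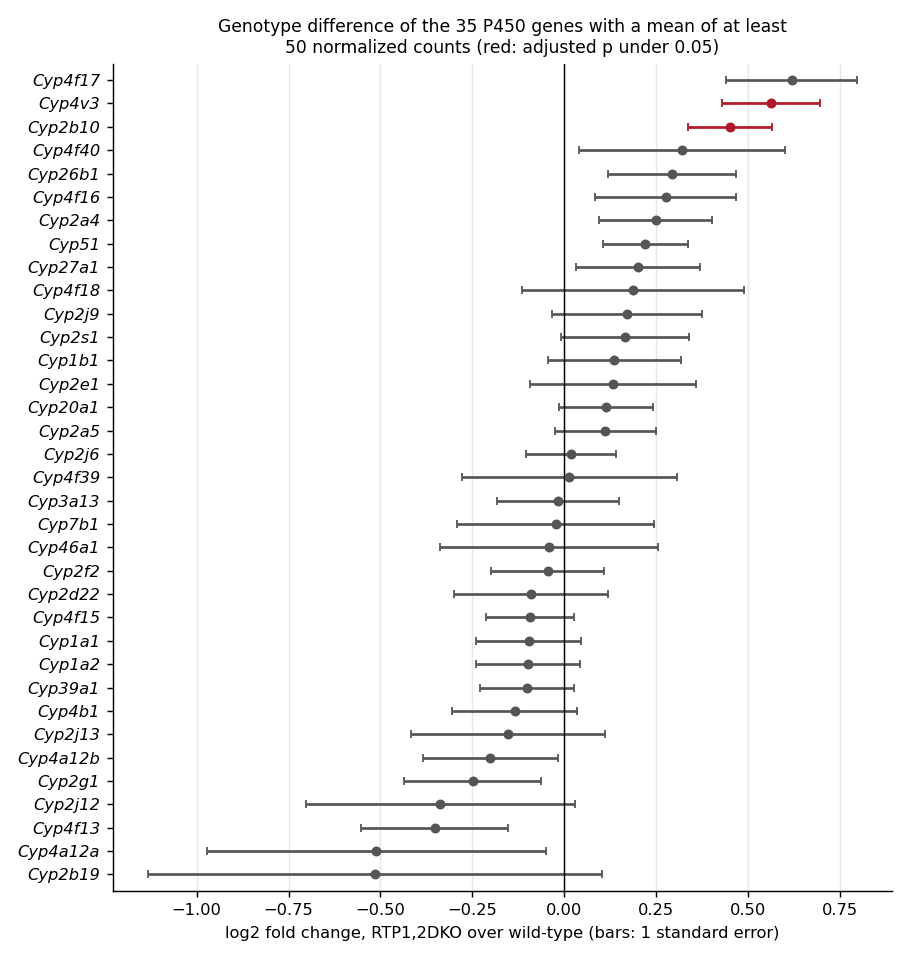
Log2 fold change of RTP1,2DKO over wild-type with its standard error for the 35 P450 genes with a mean of at least 50 normalized counts. Cyp4v3 and Cyp2b10, in red, passed the adjusted threshold, and the values run from -0.51 for Cyp2b19 to 0.62 for Cyp4f17.

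In normalized counts, the enzymes that make up most of the P450 RNA did not differ between the genotypes beyond the spread between mice. Cyp2a5 averaged 102173 ± 12201 normalized counts (SD) over the 3 wild-type mice and 110426 ± 11855 (SD) over the 3 RTP1,2DKO mice, with a log2 fold change of 0.11 (SE 0.138, adjusted p = 0.840 in edgeR). Cyp2f2 had a log2 fold change of -0.04 (SE 0.154), Cyp2e1 of 0.13 (SE 0.226), Cyp1a2 of -0.10 (SE 0.141) and Cyp1a1 of -0.10 (SE 0.143), and none passed.

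For several members the picture depended on the scale, and Cyp2g1 is the most abundant of them. In normalized counts Cyp2g1 had 30303.3, 28894.4 and 47038.3 in the wild-type and 24962.1, 30021.4 and 34429.2 in RTP1,2DKO. These overlapped, with a log2 fold change of -0.25 (SE 0.187, adjusted p = 0.719 in edgeR). In TPM the groups did not overlap, with 833.6 ± 33.0 (SD, n = 3) TPM against 608.8 ± 13.97 (SD, n = 3), a ratio of 0.730 (two-sided exact permutation test, p = 0.1). With limma, the log2 fold change of Cyp2g1 was -0.453 on unscaled TPM (adjusted p = 0.831) and -0.225 on rescaled TPM (adjusted p = 0.805). The TPM scale itself was shifted, since the median log2 fold change of all genes with a mean of at least 50 normalized counts was -0.21 in TPM and 0.01 in the main fit. On rescaled TPM this median was 0.015. Summed over all members, TPM gave a ratio of 0.873 (exact permutation test, p = 0.4). Bpifb9b, which was listed among the Bowman's gland genes, took 4.81% to 13.74% of the counts of a mouse. With Bpifb9b left out of the TPM total, the ratio was 0.87 (exact permutation test, p = 0.3). In TPM, 2 members were higher and 5 lower without overlap of the groups, as were 1.28% and 7.92% of all genes tested. Cyp2f2 was among the 5. Cyp4v3 and Cyp2b10 overlapped between the groups in TPM (log2 fold changes of 0.345 and 0.224 with limma on unscaled TPM, adjusted p = 0.9 for each). The cause of the shift was not tested.

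**Figure D5:**
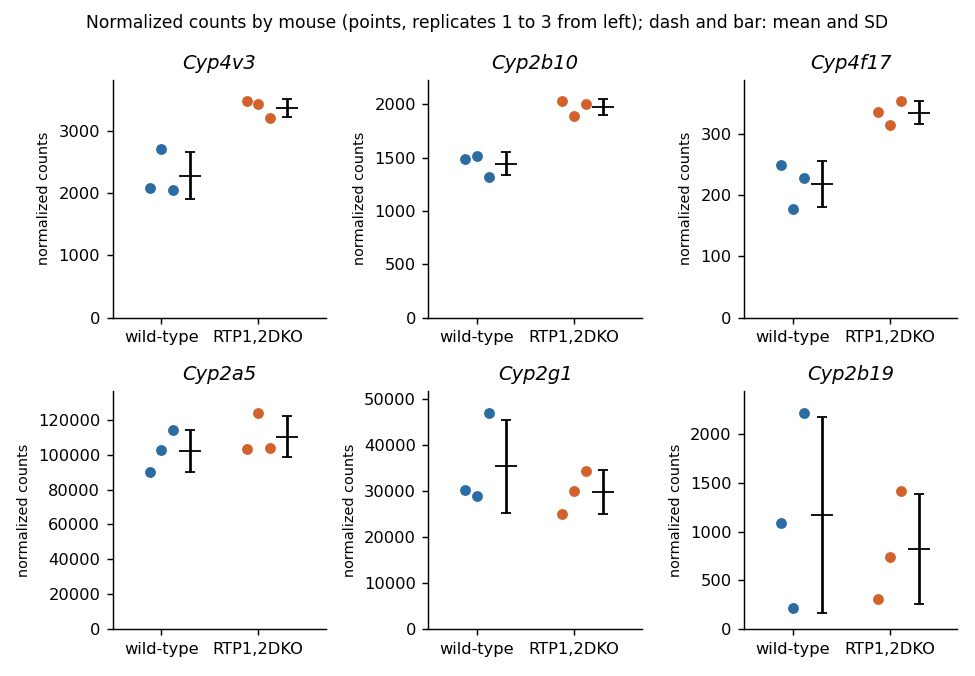
Normalized counts by mouse for 6 P450 genes, with replicates 1 to 3 from left to right in each group and the mean and SD beside them (blue, wild-type; orange, RTP1,2DKO; axes start at 0). Cyp4v3, Cyp2b10 and Cyp4f17 show no overlap of the groups, and Cyp2a5, Cyp2g1 and Cyp2b19 do overlap.

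Groups that did not overlap in normalized counts were seen for 7 members higher and 2 lower in RTP1,2DKO, while 7.17% and 9.24% of all genes tested showed these patterns. Cyp2a4 and Cyp51 were among the 7, with log2 fold changes of 0.25 (SE 0.153) and 0.22 (SE 0.115). The 2 lower ones had few counts. Cyp11a1, the cholesterol side-chain cleavage enzyme that opens steroid synthesis, had 18.7, 15.3 and 25.4 normalized counts in the wild-type and 10.6, 6.1 and 4.9 in RTP1,2DKO (log2 fold change -1.45, SE 0.653, adjusted p = 0.406 in edgeR). Cyp2c44 had 21.8, 28.7 and 16.6 in the wild-type and 8.5, 9.6 and 7.9 in RTP1,2DKO (log2 fold change -1.36, SE 0.587, adjusted p = 0.376 in edgeR).

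By role, the calls were 1 of 37 family 2 genes tested (Cyp2b10) and 1 of 23 family 4 genes (Cyp4v3), both upward. Of the 3 family 1 genes, the 5 family 3 genes tested, the 7 sterol and bile acid enzymes, the 3 retinoic acid hydroxylases, the 3 vitamin D enzymes and the 4 steroid hormone enzymes tested, 0 passed in either direction. The median log2 fold changes were -0.10 for family 1, -0.02 for family 2, -0.21 for family 3, 0.09 for family 4 and 0.16 for the sterol and bile acid enzymes. They were 0.29 for the retinoic acid hydroxylases, 0.01 for the vitamin D enzymes and 0.805 for the steroid hormone enzymes, and no gene of the last 2 classes reached a mean of 50 normalized counts. Among the sterol and bile acid enzymes Cyp27a1 had a log2 fold change of 0.20 (SE 0.169), Cyp39a1 of -0.10 (SE 0.129), Cyp7b1 of -0.02 (SE 0.268) and Cyp46a1 of -0.04 (SE 0.296). Of the other abundant genes, Cyp2j6 (0.02), Cyp3a13 (-0.02), Cyp4a12b (-0.20), Cyp4b1 (-0.14), Cyp4f15 (-0.09) and Cyp20a1 (0.11) did not pass either.

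The RNA of genes that serve P450 enzymes with electrons and heme was also tested, with genes of heme breakdown (Hmox1, Hmox2, Blvra and Blvrb) in the same list. Of these 16 electron and heme partner genes, 0 rose and 0 fell, and their median log2 fold change was 0.04. Blvra (log2 fold change 0.364, SE 0.169) and Blvrb (0.587, SE 0.21) were higher in every RTP1,2DKO mouse. Hmox2 was lower in every one (-0.157, SE 0.144). Of all genes tested, 7.17% were higher and 9.24% lower in this way. Por averaged 13792 ± 1266 normalized counts (SD) over the 3 wild-type mice and 13959 ± 751 (SD) over the 3 RTP1,2DKO mice, with a log2 fold change of 0.02 (SE 0.120). Cyb5a had a log2 fold change of 0.15 (SE 0.160), and Alas1, the enzyme that starts heme synthesis, of 0.04 (SE 0.149). In TPM, Por with a mean of 204.9 was below Cyp2a5, and Cyb5a had a mean of 678.9.

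Of 13 regulators of P450 genes, 1 fell and 0 rose. Nfe2l2, the transcription factor NRF2 of the oxidative stress response, had 11554.2, 13190.2 and 11227.7 normalized counts in the wild-type and 7315.6, 7517.4 and 8531.8 in RTP1,2DKO. The groups did not overlap, and the log2 fold change was -0.62 (SE 0.122, adjusted p = 0.0104 in edgeR). Leaving out RTP1,2DKO mouse 1 or mouse 2 ended this call (adjusted p = 0.0593 and 0.0641 in edgeR), as did leaving out mouse 2 of both groups (0.167) and limma on unscaled TPM (0.326). The receptors that respond to xenobiotics did not pass. Ahr, the aryl hydrocarbon receptor, had a log2 fold change of -0.12 (SE 0.134), and Nr1i3, the receptor through which phenobarbital induces Cyp2b10 in liver, had at most 18.2 normalized counts in any mouse.

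The conjugating enzymes that follow P450 oxidation, taken as all genes named Ugt, Sult or Gst, numbered 64, of which 53 were tested. Of these 1 fell and 0 rose, with a median log2 fold change of 0.10. Sult1d1, a sulfotransferase, had 13765.0, 18021.9 and 10838.3 normalized counts in the wild-type and 6765.8, 7149.9 and 6143.5 in RTP1,2DKO (log2 fold change -1.09, SE 0.167, adjusted p = 0.00202 in edgeR). With limma on TPM, unscaled or rescaled, 0 genes of this list passed. Ugt2a1, the olfactory glucuronosyltransferase, was near 0 (log2 fold change -0.01, SE 0.161), and its mean of 3665 TPM was above that of Cyp2a5.

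Markers of other cell types moved with the genotype beside these results. Besides the mature neuron genes, 2 of 8 immature neuron genes (Gap43 and Gng8) rose, 1 of 10 respiratory ciliated cell genes fell and 1 of 7 blood genes (Hbb-bt) rose. The summed blood genes ranged from 59489.9 to 97760.5 normalized counts in the wild-type and from 95782.3 to 177172 in RTP1,2DKO, while the summed sustentacular cell genes ranged from 326287 to 438015 and from 335236 to 393080. Ugt2a1 alone gave most of the sustentacular sum, with 219187.8 to 317775.0 normalized counts over the mice. None of 9 basal cell genes passed, but 5 were higher in every RTP1,2DKO mouse. The part of these cell types in the rise of Cyp4v3 and Cyp2b10 was not tested.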

How the data were processed

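Stranded RNA-Seq libraries were made from whole olfactory mucosa, 1 per mouse. The kit is named differently in the labels and in the methods. For each mouse the authors ran kallisto (version not given in the sources used here) on mouse transcripts with extended olfactory receptor annotations, and deposited for each transcript a TPM value beside an estimated count that is often not whole. The submitters' processing notes name mm10 as the build.

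Estimated counts and TPM were summed per gene, and the counts were rounded to whole numbers. Totals were 33852648, 33275526 and 34121193 in the wild-type and 31125410, 41636996 and 38344360 in RTP1,2DKO. Normalized counts are counts divided by median-of-ratios size factors (0.9039 to 1.1428). All 22152 genes that reached 1 count in any mouse were tested with edgeR 4.0.16 (quasi-likelihood test, size factors of DESeq2 1.42.0, R 4.3.3) with Benjamini-Hochberg adjustment at 0.05. TPM was compared between genes, since it is per length, and single values by exact permutation tests in Python 3.11.15 (scipy 1.17.1). Positions came from GENCODE M21 (GRCm38, the same assembly as mm10), promoters from RefSeq.

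The alternatives were TMM, a low-count filter, DESeq2's Wald test, a transcript length offset, a block for the replicate number, leaving out single mice or replicate 2 of both groups and, added after seeing the data, limma 3.58.1 on log2(TPM + 0.1), also with TPM rescaled by median of ratios. Both groups carry the numbers 1 to 3 in the labels, and the methods call the mice sex-matched littermates. Deviations from the group means of mice with the same number correlated at 0.139, 0.179 and 0.103 over 18140 genes. Those of mice with different numbers correlated at -0.22 to 0.094. Mouse 2 was the female of both groups by Xist (73916.1 and 66610.7 normalized counts), so sex and pairing cannot be told apart in the value of 0.179. Whether the numbers pair the mice is thus not settled. The main test and the permutation tests left the numbers out, and only the block used them.

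Members, gene lists and tests were chosen with earlier results of these data known, and support nothing independently. The text names the 15 members with the highest mean TPM, every member past the threshold, the 5 largest log2 fold changes each way at a mean of at least 50 normalized counts, the hormone, vitamin and sterol enzymes with at least 1 TPM, partner and regulator genes past the threshold with Por, Cyb5a and Alas1, and Rtp1 and Rtp2. Other genes were named after their values were seen. Shared sequence was judged from 31-base words and coding nucleotides in place of the planned protein identity.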

Additional observations from a re-analysis of the deposited data

How the results depend on the processing

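The count of 2 members up and 0 down held with TMM, a low-count filter and the replicate number as a block (2 up and 0 down in each). It was 3 up with DESeq2's Wald test. The block changed no call among the members. The count up was 1 with a transcript length offset, and 0 with limma on TPM and on rescaled TPM. With single mice or replicate 2 of both groups left out, the count up ranged from 0 to 1. The count down ranged from 0 to 1, and the 1 was Cyp4a12a without RTP1,2DKO mouse 3. Over the 14 alternatives Cyp4v3 had log2 fold changes from 0.345 to 0.707 and Cyp2b10 from 0.224 to 0.521, with the lowest value of each on unscaled TPM, where all genes shifted by -0.208. The log2 ratio of the summed members was 0.02 in normalized counts and turned to -0.20 in TPM. With limma on unscaled TPM the log2 fold change also turned negative for Cyp2a5 (-0.114), Cyp2e1 (-0.026), Cyp2j6 (-0.212), Cyp20a1 (-0.119), Cyp27a1 (-0.018), Cyp51 (-0.011), Por (-0.208), Cyb5a (-0.054) and Alas1 (-0.168). None of these genes had a call. With mice left out, further genes without a call changed sign, and the log2 fold changes ranged from -0.38 to 0.01 for Cyp2g1, from -0.14 to 0.10 for Cyp2f2, from -0.14 to 0.41 for Cyp2e1, from -0.24 to 0.014 for Cyp1a1, from -0.039 to 0.096 for Cyp2j6, from -0.14 to 0.17 for Cyp3a13, from -0.36 to 0.024 for Cyp4b1, from -1.17 to 0.34 for Cyp2b19, from -0.19 to 0.16 for Cyp7b1, from -0.25 to 0.11 for Cyp46a1, from -0.03 to 0.10 for Por, from -0.02 to 0.31 for Cyb5a and from -0.087 to 0.227 for Alas1. The cause of these changes was not tested. With 3 mice a group, a difference within the spread between mice was not detectable, and members with few counts were limited by depth.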
